A study of Homo sapiens with 2 samples.

Results

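The genes described here are 39 markers of breast epithelial lineage, of stem-like breast cancer cells and of pluripotency. They were taken as every probe set of the array that the platform annotation assigns to exactly 1 of these genes, which gave 99 of 54675 probe sets and covered 34 of the 39 genes. POU5F1, which encodes the pluripotency factor OCT4, was represented only by a probe set shared with other genes and was left out. KRT6A, KRT17, KRT81 and TP63 were not analysed here. By role, 12 genes were luminal, 10 basal, 8 stem cell markers, 4 of the Notch pathway and 5 of pluripotency.

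The samples were MDA-MB-231 cells, an established human line of triple-negative breast cancer, 48 h after transfection with siRNA against KMO (siKMO) or with a control siRNA (siControl). Both cultures received the same transfection reagent, and RNA of each was measured on 1 Affymetrix U133 Plus 2.0 array. KMO encodes kynurenine 3-monooxygenase, an enzyme of tryptophan breakdown. The title of the series asks whether KMO acts on pluripotency genes through beta-catenin. The description field names the arrays with shK421 and shLUC, strings usual for short hairpin constructs, so the kind of knockdown is not settled by the labels. With 1 array per condition there was no replicate, no test between conditions was possible, and each difference below describes this pair of cultures. The number of arrays limits the precision.

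The lining of the breast has an inner luminal layer and an outer basal layer. Luminal cells depend on the transcription factors ESR1, GATA3 and FOXA1 and carry secretory products such as trefoil factors and mucin, whereas basal cells carry the keratins KRT5 and KRT14. Triple-negative cancers lack the oestrogen and progesterone receptors. Cells able to seed new tumours are commonly sought in breast cancer by surface CD44 without CD24, or by aldehyde dehydrogenase activity. SOX2, NANOG and OCT4 hold embryonic stem cells in the undifferentiated state, and Notch receptors pass signals between neighbouring cells that bias the choice of lineage.

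Levels are deposited RMA values on the log2 scale, on which a difference of 1 is 2-fold, and every difference is siKMO minus siControl. The probe set with the highest average of the arrays stood for its gene, and a gene counted as above background where that average was at least 6. RMA values carry no detection call. Of 32 genes of organs foreign to the breast, such as the eye and the pancreas, 31 lay under this level, the exception being MBP. Probe sets differ in their own background and in their binding, so levels are not compared between genes. Where 1 array was under 6, the fold is given as a bound with that level taken as 6, and where both were under it no fold is given. The knockdown could not be checked, since all 3 KMO probe sets were between 2.35 and 2.92 in siKMO and between 2.11 and 2.95 in siControl.

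The labelled line was set against genes for which MDA-MB-231 is known. All 21 genes known as high in it that had a probe set were above background on both arrays, among them VIM, the mesenchymal filament vimentin (12.96 in siKMO, 12.90 in siControl), AXL, a receptor kinase (11.51 and 11.60), and ZEB1, a repressor of epithelial genes (8.52 and 8.75). Of 14 genes known as low or silent in it, 9 were nevertheless above background, beside 45.5% of all named genes. CDH1, the epithelial adhesion protein E-cadherin, had a level of 8.62 in siKMO and 10.54 in siControl, OCLN, a tight junction protein, 7.73 and 9.11, and SPINT1, an epithelial protease inhibitor, 6.15 and 7.64. CD24, usually scarce in this line, was at 9.45 in siKMO and 10.46 in siControl. ESRP1, GRHL2 and RAB25, regulators and markers of the epithelial state, were under 4 on both arrays. The arrays thus held a mesenchymal profile together with epithelial transcripts that the line is usually described as lacking. All 9 of these epithelial transcripts were lower in siKMO, beside 44.1% of all measured genes, and 6 of them by at least 2-fold, beside 1.39%. ERBB3 was among the 6 only with its siKMO level of 5.61 as deposited. CLDN3 and ERBB3 were above background only through the siControl array, which fixed their direction. In the other 7 of the 9 both arrays were at or over 6. This list was made with earlier results of these data known, so its counts describe the list and do not set it apart from other genes. CD24, one of the 6, is also a member and is counted again below. Of 15 markers of stromal and blood cells, 14 were under 6 on both arrays. The exception was COL1A1, a collagen chain, at 6.90 in siKMO and 7.08 in siControl. PTPRC, which marks all white blood cells, was at 2.98 and 3.39.

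**Figure D1:**
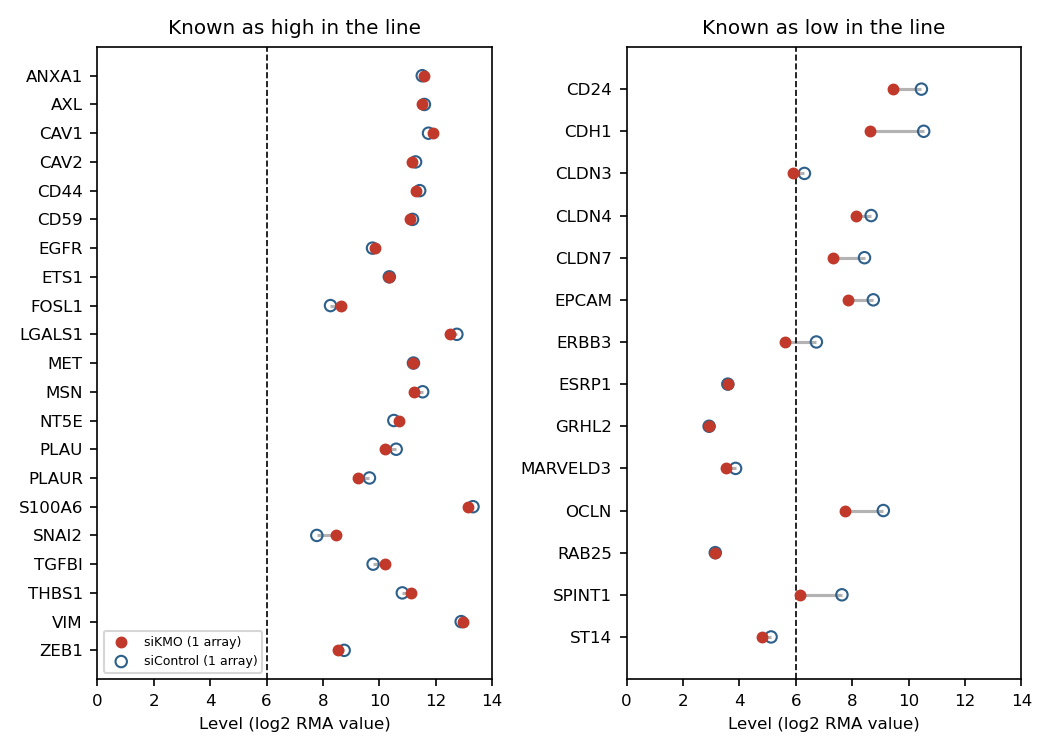
Levels (log2 RMA value, x axis) of genes known as high (left) and as low (right) in MDA-MB-231, 1 point per array, with siKMO filled and siControl open and the background level of 6 as a dashed line. All 21 genes on the left lie beyond the line, as do 9 of the 14 on the right, where CDH1 is at 8.62 in siKMO and 10.54 in siControl.

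Of the 34 genes with a probe set, 16 were above background (47.1%), a share close to the 45.5% of all 19775 named genes. They were 6 of 12 luminal genes, 1 of 6 basal genes, 6 of 8 stem cell markers, 3 of 4 Notch genes and 0 of 4 pluripotency genes. In 13 of the 16 both arrays were at or over 6, and in MUC1, ABCG2 and SUSD2 only the siControl array was. No gene lay close to the limit from below: the highest mean among the 18 genes under background was 5.52, and the lowest among the 16 above it was 6.11.

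**Figure D2:**
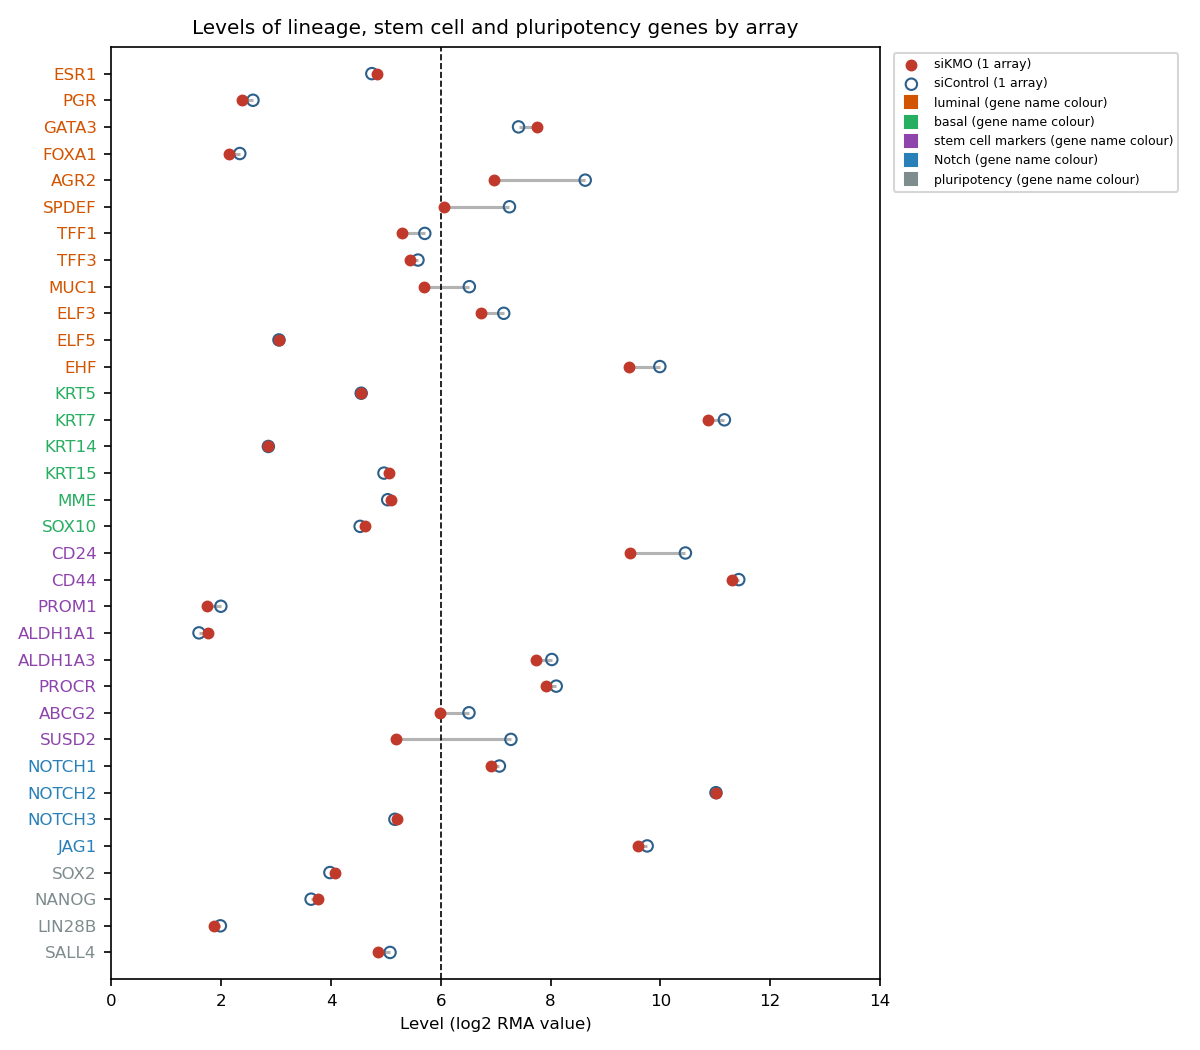
Level (log2 RMA value, x axis) of each of the 34 genes on the siKMO array (filled) and the siControl array (open), with gene names coloured by role and a dashed line at 6. AGR2, SPDEF, CD24 and SUSD2 have the widest gaps, and all 4 pluripotency genes lie left of the line.

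The difference between arrays ran mostly one way in the 16 genes above background. 14 were lower in siKMO (87.5%) and 2 higher, where 44.1% of all 8997 measured genes were lower and 54.8% higher. 4 were lower by at least 2-fold, which is 25% of them beside 1.39% of all measured genes, and 0 were higher by at least 2-fold beside 0.856%. These were SUSD2, AGR2, SPDEF and CD24. At 1.5-fold the lower count on the deposited values was 5, beside 5.41% of measured genes, and the higher count was 0, beside 5.19%. The gene added was MUC1, which is under 1.5-fold with its siKMO level of 5.69 taken as 6. The median difference was -0.35, against 0.04 over all measured genes, of which the central 95% lay between -0.82 and 0.74. Over the 37 probe sets of these genes with a mean of at least 6, 33 were lower and 4 higher, beside 44.3% lower over all 14831 such probe sets assigned to 1 gene. 5 of the 37 (13.5%) were lower by at least 2-fold, beside 1.21%. SUSD2, MUC1 and ABCG2 were above background only through the siControl array, which fixed their direction. With both arrays required to reach 6, 11 of 13 members were lower, beside 43.8% of genes so measured. Of the 13, 3 were lower by at least 2-fold, beside 1.11%. With the probe sets of each gene averaged, 0 of the 10 members then above background were lower by 2-fold, and with names ending in _x_at or _s_at left out 2 of 9 were. The members were named with results of these arrays known, so these counts describe the list and do not set it apart from other genes.

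**Figure D3:**
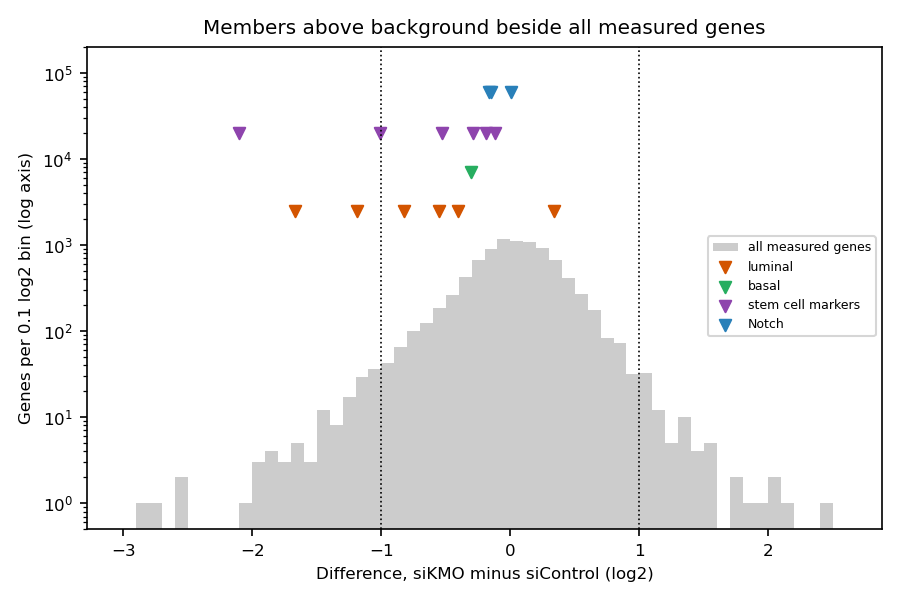
Number of measured genes (log axis) per bin of 0.1 in the difference siKMO minus siControl (log2, x axis, grey), with the 16 genes above background as triangles in a row per role whose height has no meaning, and dotted lines at 2-fold. Luminal genes and stem cell markers reach past the left line, whereas the 3 Notch genes lie near 0.

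Among luminal genes, the hormone receptors were under background and GATA3 was above it. ESR1, the oestrogen receptor, was at 4.84 in siKMO and 4.74 in siControl, and its 9 probe sets were all under background. PGR, the progesterone receptor, was at 2.39 and 2.58, and FOXA1, the factor that opens chromatin for the oestrogen receptor, at 2.15 and 2.34. All 3 genes were thus under background, the receptors among them. GATA3, a zinc finger factor of luminal differentiation, was above background at 7.75 in siKMO and 7.42 in siControl. It was the luminal gene that was higher in siKMO, by 0.34, and its further probe sets, both under 6, differed by 0.20 and 0.28.

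The secretory luminal genes were lower or under background. AGR2, a disulfide isomerase of the endoplasmic reticulum needed for mucin production in mice, was at 6.96 in siKMO and 8.63 in siControl, a 3.18-fold lower level. Its other probe set was under background at 3.62 in siKMO and 4.40 in siControl. MUC1, a transmembrane mucin of the luminal surface, was at 5.69 and 6.52, at least 1.44-fold lower. Its further probe sets were under 6 on both arrays, with differences of -1.03 and -0.39. The trefoil peptides TFF1 (5.29 in siKMO, 5.71 in siControl) and TFF3 (5.45 and 5.59), which protect mucosal surfaces, were under background. TFF1 and TFF3 lie close together on chromosome 21, with 1 protein-coding gene between them.

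4 luminal members encode epithelial factors of the ETS family, a family in which many factors bind a GGAA core. SPDEF, which drives secretory differentiation, was at 6.06 in siKMO and 7.25 in siControl with its leading probe set, a 2.28-fold lower level. The other probe sets above background gave 6.18 and 6.82, and 6.01 and 6.93, so that its 3 differences ran from -1.19 to -0.64. The remaining probe sets, under 6 on both arrays, were at 5.18 in siKMO and 5.22 in siControl, and at 5.01 and 5.20, differences of -0.05 and -0.18. All 5 SPDEF probe sets carry the ending _x_at, by which the manufacturer marks possible binding to other transcripts. EHF was at 9.44 in siKMO and 9.99 in siControl, 1.47-fold lower, and its 5 further probe sets, with means of 4.38 to 5.94, differed by -0.61 to -0.37. ELF3 had no settled direction, with 6.74 and 7.15 for its leading probe set and differences from -0.41 to 0.18 over 3. ELF5, a factor of the milk-producing lineage, was at 3.05 on both arrays. ELF5 and EHF are neighbours on chromosome 11 with 0 protein-coding genes between them, so a gene under background and a gene above it sit side by side.

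Of the 4 genes lower by at least 2-fold, SUSD2 had no entry among the annotated regions. The regions before the starts of the other 3, AGR2, SPDEF and CD24, are shown. Each is 250 bases ending at the base before the annotated start, from RefSeq on GRCh38.p14 and read 5′ to 3′ along the gene. Of the 39 genes, 27 had an entry. CD24 has 3 annotated starts, and the one that holds a match is printed. Capitals mark AGGAAG, an ETS-type motif, and CAGGTG, the E2-box bound by ZEB and SNAI factors, each searched on both strands. The motifs share no overlapping match here.
AGR2 (chr7:16805000-16805249, minus strand): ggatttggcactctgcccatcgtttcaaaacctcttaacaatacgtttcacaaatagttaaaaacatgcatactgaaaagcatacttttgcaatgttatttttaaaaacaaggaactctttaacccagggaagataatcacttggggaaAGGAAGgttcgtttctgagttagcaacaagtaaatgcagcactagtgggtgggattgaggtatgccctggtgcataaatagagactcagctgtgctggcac
SPDEF (chr6:34556330-34556579, minus strand): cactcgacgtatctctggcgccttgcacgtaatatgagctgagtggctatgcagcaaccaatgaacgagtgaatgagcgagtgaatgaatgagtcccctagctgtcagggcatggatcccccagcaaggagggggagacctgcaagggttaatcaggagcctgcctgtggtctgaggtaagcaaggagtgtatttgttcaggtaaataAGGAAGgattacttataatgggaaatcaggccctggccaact
CD24 (chr6:106974040-106974289, minus strand): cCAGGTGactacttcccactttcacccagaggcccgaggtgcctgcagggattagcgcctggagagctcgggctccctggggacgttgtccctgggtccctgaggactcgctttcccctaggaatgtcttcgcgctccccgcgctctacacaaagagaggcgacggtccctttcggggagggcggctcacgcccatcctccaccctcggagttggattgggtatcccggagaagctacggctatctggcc
AGR2 and SPDEF each held 1 AGGAAG and 0 CAGGTG, and this CD24 region held 0 AGGAAG and 1 CAGGTG, while the regions of the other CD24 starts held neither. Of all 35116 RefSeq regions of the same length, 28.7% held AGGAAG and 17.5% held CAGGTG on either strand. A match describes the letters and marks no binding site. The G and C content was 40.4% for AGR2, 50.8% for SPDEF and 64.0% for the CD24 region.

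Basal genes were nearly all under background. KRT7, a simple-epithelium keratin counted here with the basal list, was the exception at 10.86 in siKMO and 11.17 in siControl, a difference of -0.30. Its further probe sets were under 6 and differed by -0.41 to 0.00. KRT5, the keratin of the basal layer, was at 4.55 on both arrays and its partner KRT14 at 2.86 on both. KRT15 was at 5.06 in siKMO and 4.97 in siControl. MME, the surface peptidase CD10 of myoepithelial cells, was at 5.09 and 5.03, and SOX10, a factor of neural crest and of some basal-like tumours, at 4.63 and 4.53. KRT5 and KRT7 lie in the same keratin cluster on chromosome 12 with 10 protein-coding genes between them. Exactly equal values on both arrays, as for KRT5 and KRT14, were found for 8 of the 99 probe sets (8.08%), all of them under 6, beside 9.46% of all probe sets of the array.

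Of the 6 stem cell markers above background, SUSD2 and CD24 were lower by at least 2-fold and the other 4 by less. SUSD2, a membrane protein used to sort stromal stem cells, was at 5.18 in siKMO and 7.28 in siControl. With the siKMO level taken as 6 this is at least 2.43-fold lower. Its other probe set was under background on both arrays (4.40 in siKMO, 4.96 in siControl), so the difference rests on 1 probe set.

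CD24, a small sialylated anchor protein of the cell surface, was lower with each of its 6 probe sets. Their siKMO levels were 9.45, 9.06, 8.49, 8.03, 7.61 and 7.52, and the siControl levels of the same probe sets were 10.46, 10.05, 9.43, 9.09, 8.59 and 8.49. The differences lay between -1.06 and -0.95, around 2-fold, and 2 of the 6 passed 2-fold. The leading one was 2.01-fold lower, just inside that limit. All 6 carry the endings _x_at or _s_at, which mark binding to several or to further transcripts.

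CD44, the hyaluronan receptor that stem-like breast cancer cells carry, differed little. It was at 11.31 in siKMO and 11.43 in siControl, a difference of -0.12. Of its 13 probe sets, 8 were above background and all 8 were lower in siKMO, 7 of them with differences of -0.30 to -0.05. The eighth, at 7.22 in siKMO and 7.87 in siControl, differed by -0.65. A probe set with a mean just under 6 went the other way, at 6.06 in siKMO and 5.74 in siControl.

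The aldehyde dehydrogenase members separated into a gene above background and a gene under it. ALDH1A3, a retinoic acid synthesising enzyme that contributes to the activity used to sort stem-like cells, was at 7.74 in siKMO and 8.02 in siControl, a difference of -0.29. Its other probe set was under background at 3.94 in siKMO and 4.81 in siControl, a difference of -0.87. ALDH1A1 was at 1.77 and 1.60, and PROM1, the stem cell surface protein CD133, at 1.75 and 1.99, both far under background. PROCR, the endothelial protein C receptor and a marker of mammary stem cells in mice, differed by -0.19 (7.92 in siKMO, 8.10 in siControl). ABCG2, a drug efflux pump, was at 5.98 and 6.51, at least 1.43-fold lower. All 6 stem cell markers above background were thus lower in siKMO, where 44.1% of all measured genes were, and 2 of them by at least 2-fold, beside 1.39%. SUSD2 and ABCG2 were above background only through the siControl array, which fixed their direction. Of the 4 with both arrays at or over 6, all were lower and CD24 alone passed 2-fold. The median difference of the 6 was -0.41, and -0.24 with a minimum of 7 or with both arrays required to reach 6. CD24 is among the 6 although stem-like cells are sought by its absence. Neither the count nor the median therefore measures a stem-like state.

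**Figure D4:**
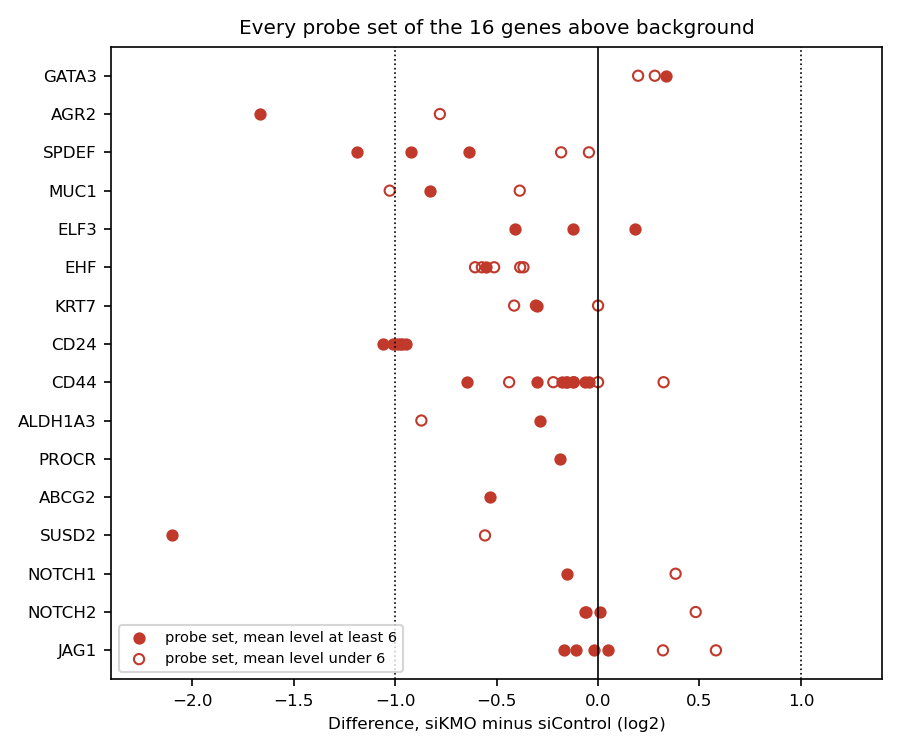
Difference siKMO minus siControl (log2, x axis) of every probe set of the 16 genes above background, 1 point per probe set, filled where its mean level was at least 6 and open where it was under 6, with dotted lines at 2-fold. The 6 CD24 points lie together between -1.06 and -0.95, whereas the ELF3 points fall on both sides of 0.

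Of the 6 genes with 2 or more probe sets above background, SPDEF, CD24 and CD44 had all of them in 1 direction, and ELF3, NOTCH2 and JAG1 did not. That is 50.0%, beside 72.6% of all 3777 such genes. Probe sets of a gene read the same RNA and are no replicates of a culture.

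Notch genes above background had differences between -0.17 and 0.01 with their leading probe sets. NOTCH2, a receptor, was at 11.02 in siKMO and 11.01 in siControl, with differences of -0.06 to 0.01 over its 3 probe sets above background. A further one with a mean under 6 was at 6.03 in siKMO and 5.55 in siControl. JAG1, its membrane-bound ligand, was at 9.59 and 9.76, with -0.17 to 0.05 over 4, and its probe sets under 6 on both arrays differed by 0.58 and 0.32. NOTCH1 was at 6.92 and 7.07, a difference of -0.15, and its other probe set, under background, differed by 0.38. NOTCH3 was under background at 5.20 and 5.16. As with CD24, all NOTCH2 and JAG1 probe sets above background carry the endings _x_at or _s_at.

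None of the pluripotency genes with a probe set came above background on either array. SOX2 was at 4.08 in siKMO and 3.98 in siControl for the highest of its 4 probe sets. NANOG was at 3.76 and 3.64, LIN28B, which blocks maturation of let-7 microRNAs, at 1.87 and 1.99, and SALL4, a zinc finger factor of embryonic stem cells, at 4.86 and 5.08. The genes of foreign organs had a median level of 3.96 in siKMO and 3.74 in siControl. A difference between conditions in these 4 genes was not detectable with these probe sets.

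The further genes of each pathway came from lists that include no member. In these lists too the shares over all genes are 45.5% above background and, of measured genes, 44.1% lower, 54.8% higher and 1.39% lower by at least 2-fold. Counts use the deposited values. These lists were made with earlier results of these data known, so the counts only describe the lists. ERBB3, CLDN3 and ITGB3 were above background only through the siControl array, which fixed their direction. Among 22 further luminal genes with a probe set, 14 were above background and 12 of them were lower in siKMO, 3 by at least 2-fold, ERBB3 among them only as deposited. CDH1 was 3.78-fold lower, CLDN7, a tight junction protein, 2.16-fold lower (7.33 in siKMO, 8.44 in siControl), and ERBB3, a neuregulin receptor, at least 1.66-fold lower (5.61 and 6.73). EPCAM, an epithelial adhesion molecule, differed by -0.90, CLDN4 by -0.54 and KRT19, a keratin of luminal cells, by -0.41. CLDN3 was at 5.90 and 6.31, at least 1.24-fold lower. KRT8 and KRT18, the paired keratins of luminal cells, went the other way at 0.17 and 0.15. The list median was -0.36. CDH1, CLDN3, CLDN4, CLDN7, EPCAM and ERBB3 also stand among the genes known as low in the line, so their values here are those counted there and are no separate evidence.

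Among 17 further basal genes, 9 were above background, 5 lower and 4 higher, with a median of -0.25. CDH3, the placental cadherin of myoepithelial cells, was 3.05-fold lower (6.39 in siKMO, 8.0 in siControl), and ITGB4, the integrin of hemidesmosomes, 2.10-fold lower (6.74 and 7.81). LAMB3, a chain of the laminin it binds, differed by -0.77. SFN, an epithelial 14-3-3 protein, differed by 0.39, MYLK, a myosin kinase, by -0.39, and TAGLN, a smooth muscle actin-binding protein, by 0.28.

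Of 22 further stem cell genes, 10 were above background, 8 lower and 2 higher, with a median of -0.44. 2 were lower by at least 2-fold, ITGB3 among them only as deposited. MCAM, a surface adhesion molecule of perivascular stem cells, was 2.23-fold lower (6.68 in siKMO, 7.83 in siControl) and ITGB3, a marker of luminal progenitors in mice, at least 1.55-fold lower (5.48 and 6.63). ALDH2, the mitochondrial acetaldehyde dehydrogenase, differed by -0.65. SNAI2 and SOX9, transcription factors that together are linked to the mammary stem cell state in mice, were the higher pair, at 0.69 and 0.52. CXCR4, a chemokine receptor named after its values were seen, was not counted because its mean was under 6. It was at 4.41 in siKMO and 7.20 in siControl, at least 2.30-fold lower. EPCAM and ITGA6 stand in this list and in another of these lists.

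Of 35 further Notch genes, 21 were above background, 7 lower and 14 higher, with a median of 0.03. LFNG, a glycosyltransferase that tunes which ligands a Notch receptor answers to, was 2.04-fold lower (6.62 in siKMO, 7.65 in siControl). ADAM10, the protease that makes the first activating cut in Notch, differed by -0.89 (-1.14 to -0.78 over 3 probe sets), and RBPJ, the DNA-binding partner of cleaved Notch, by -0.78 (-0.96 to -0.78 over 2). SPEN, a repressor that acts with RBPJ, differed by 0.49 and MAML1, a coactivator of the same complex, by 0.46. The target gene HES1 differed by 0.36, with 0.51 for its other probe set above background. HES4, in the same list and also above background, differed by -0.02 (6.39 in siKMO, 6.40 in siControl). HEY1, another target, was under background at 4.58 and 4.73.

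Of 26 further pluripotency genes, 4 were above background. KLF4, a reprogramming factor also common in epithelia, differed by -0.53 (9.28 in siKMO, 9.81 in siControl) and its relative KLF2 by -0.15. MYC, a growth-promoting transcription factor, and DNMT3B, a DNA methyltransferase, differed by 0.11 each. LIN28A, ZFP42 and DPPA4, genes typical of embryonic stem cells, were all under 3 on both arrays.

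**Figure D5:**
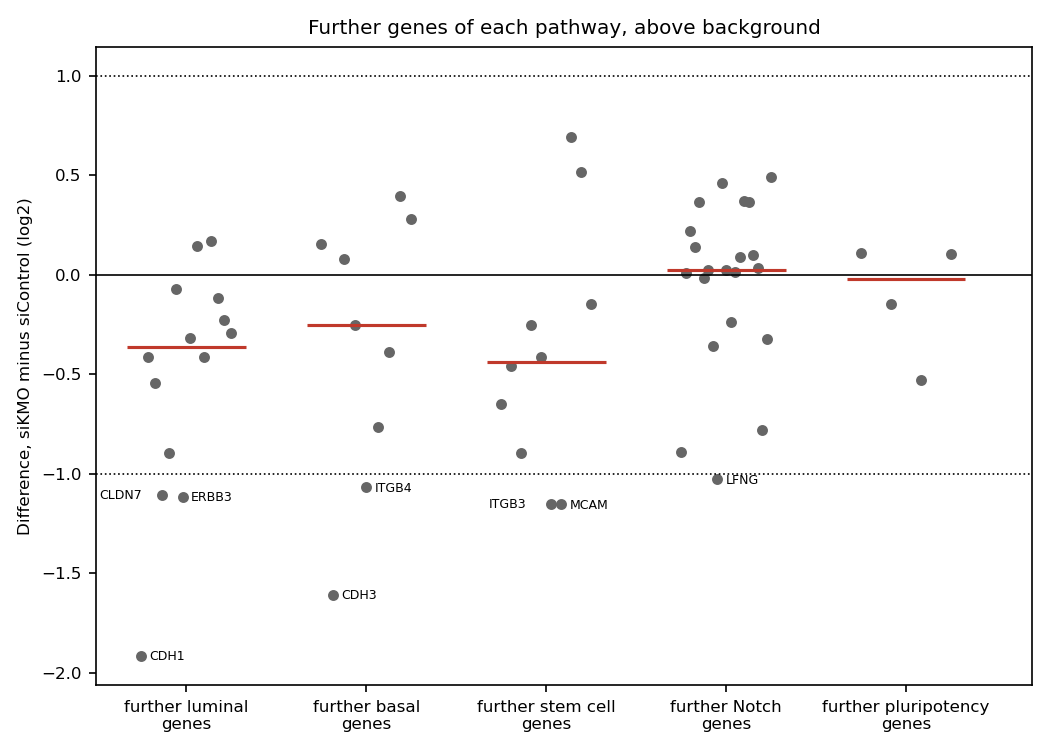
Difference siKMO minus siControl (log2 of deposited values, y axis) of each further gene above background in the 5 lists, 1 point per gene, with the list median as a red line, dotted lines at 2-fold and names on points past it. The points past 2-fold are all on the lower side, and the Notch median lies at 0.03.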

How the data were processed

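RNA of 2 MDA-MB-231 cultures was measured on 1 Affymetrix U133 Plus 2.0 array each. The deposited values are log2 levels that the authors made with the RMA algorithm (robust multi-array average), per the labels, in Affymetrix Expression Console, per the submitters' processing notes. RMA subtracts background, brings the arrays to 1 distribution and summarises probes into probe sets. A shift shared by all transcripts is therefore lost, and differences of weak genes are compressed. Neither a software version nor the arrays processed as a set is stated in the labels. The sorted values of the arrays differed by at most 0.064.

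From these values, probe sets were named through the platform annotation with symbols updated by gene identifier to RefSeq (GRCh38.p14). Of 54675, 41091 carried 1 gene, 1801 several, 11721 were not listed and 62 were array controls. The report states the level minimum of 6 and the choice of probe set per gene. The members and gene lists were chosen with earlier results of these data known. Named genes are all members, and of each further list those past 2-fold and up to 4 others with the largest differences. Genes named beyond these, such as VIM, AXL, ZEB1, KRT8, KRT18, HES1, HEY1 and genes under background, were chosen after their values were seen. Alternatives changed the level minimum to 5 or 7 or to both arrays, the probe set rule, the fold, the treatment of low levels and the scaling. The counting was tested on simulated data. Python 3.11.15, pandas 2.3.3 and numpy 2.4.6 were used.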

Additional observations from a re-analysis of the deposited data

How the results depend on the processing

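The direction of the median and the absence of members at least 2-fold higher held under all alternatives tried, but the counts moved. At a minimum of 5, 21 members were above background, with KRT15, MME, NOTCH3, TFF1 and TFF3 added. Of the 21, 16 were lower, beside 45.4% of genes so measured, and 4 by at least 2-fold, beside 1.53%. At a minimum of 7, 10 members were above background, without ABCG2, ELF3, MUC1, NOTCH1, SPDEF and SUSD2. Of the 10, 8 were lower, beside 43.5%, and 2 by at least 2-fold, beside 1.12%. With both arrays required to reach 6, 13 were above background. Of the 13, 11 were lower, beside 43.8%, and 3 by at least 2-fold, beside 1.11%. With each gene's probe sets averaged, 10 were above background, 8 lower and 0 by at least 2-fold, since AGR2, SPDEF and SUSD2 then lay under the minimum and CD24 came to -0.99, and the median difference was -0.22. With names ending in _x_at or _s_at left out, 9 were above background. Of the 9, 8 were lower, beside 45.2%, and 2 by at least 2-fold, beside 1.25%. CD24 and SPDEF have no other probe sets, so the 2 were AGR2 and SUSD2. GATA3, JAG1, KRT7, MUC1 and NOTCH2 were also no longer above background, KRT7 being the only basal gene that had been. Under that choice 5 genes known as low in the line were above background, where CD24 and EPCAM had no probe set left. Of the 2 members that still had 2 or more probe sets above background, 1 had them all in 1 direction. Both alternatives were added after seeing the data. ELF3 turned to 0.18 without those probe sets, JAG1 to 0.11 with probe sets averaged and NOTCH2 to -0.030 with each array centred on its measured genes. Of the other comparisons of single members with an alternative, 86 kept their direction and their side of 2-fold. Many of the 86 could not have changed, so this count is no measure of stability. A different minimum leaves the difference of a gene as it is, and raising levels to 6 alters nothing where both arrays exceed 6. Members that fell under the minimum were not compared. No paired analysis was possible because each condition had 1 array. The noise between cultures is unknown, and weak signal over background limits the genes near 6.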
